A study of Rattus norvegicus with 6 samples.

Results

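Extracellular matrix and hepatic stellate cell genes were followed in the livers of hypercholesterolemic rats that received a probiotic on a fat-rich diet. The set held 43 genes of the 14217 that the array annotation names by a single symbol, and its members were found by their symbols. It comprised 13 collagens, 16 other matrix proteins and remodelling enzymes, and 14 stellate cell markers and their signals, and 67 probe sets measured it. In the probiotic group, rats ate the fat-rich diet for 30 d, then for the next 30 d stayed on it and were given Lactobacillus casei Zhang in 1 ml of saline each day by gavage. In the high-fat group, rats had the same diet for the same time and 1 ml of saline alone. Each group had 3 liver samples, 1 array each, so all 6 samples came from rats on the fat-rich diet and none from rats on a normal diet. The labels give no strain, sex or age of the rats and do not state that each sample came from a rat of its own, so the p-values measure the spread between these samples.

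Hepatic stellate cells lie between the hepatocytes and the endothelium of the liver sinusoids, store vitamin A, and turn into contractile myofibroblasts after injury. Activated stellate cells are the main source of fibrillar collagen in a scarring liver, and TGF-beta and PDGF are the signals best known to drive them. Lysyl oxidases then cross-link the collagen and elastin, while metalloproteinases cut the matrix and their tissue inhibitors, the TIMPs, restrain them. In whole liver, fewer cells of a type and less RNA per cell cannot be told apart.

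The median signal was 109.8 to 117.5 on the probiotic arrays and 90.4 to 147.2 on the high-fat arrays, and the small number of arrays limits the precision. Signals were compared as log2(intensity + 16) after quantile normalization, called the log2 signal here, and all differences are probiotic minus high-fat. A principal component analysis set 2 arrays apart. Their scores on its main axis were -51.6 for probiotic sample 2 and 75.5 for high-fat sample 2. Values without these arrays are given for some of the named members and lists, not for every member. The gap between the 3' and 5' Actb control probe sets, which widens as RNA degrades, was 2.11, 3.01 and 2.38 log2 units in the probiotic samples and 1.96, 1.59 and 1.96 in the high-fat samples (exact two-sided permutation p = 0.1, the smallest that 3 against 3 allows). The same gap for Gapdh overlapped between groups, at 0.71, 1.49 and 1.23 in the probiotic samples and 0.52, 0.53 and 0.79 in the high-fat samples (p = 0.2 by the same permutation test). Among the 18 members followed by name, a fit that includes the Actb gap moved Ccn2, Tgfb1, Pdgfrb, Col1a1 and Fn1 by over 0.5, and its values stand beside them. Every probiotic sample had a wider Actb gap than every high-fat sample, so such a fit cannot tell gap and group well apart.

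No matrix or stellate cell gene differed past the adjusted threshold between the groups. Lox, which encodes the collagen cross-linking enzyme lysyl oxidase, had the clearest difference, with a signal 1.98-fold higher in the probiotic group on its brightest probe set. Fn1, which encodes fibronectin, had a signal 1.45-fold lower. Col1a1, Col1a2 and Col3a1, the main fibrillar collagens, and the myofibroblast marker Acta2 had differences between -0.09 and 0.13 on the log2 scale. With limma, 0 of the 54 member probe sets tested passed an adjusted p of 0.05, where 0.0215% of all 18625 probe sets tested did.

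A signal limit, the 40th percentile of the mean over the 6 arrays (a log2 signal of 6.30), left 37 members for the test, each read from its brightest probe set. Of these 37 genes, 14 were higher, where 51.4% of all 10573 genes tested were, and 23 were lower, where 48.6% of all genes were. The median difference was -0.07 over the members and 0.01 over all genes tested. Without high-fat sample 2, 16 of 36 members were lower. The count was 18 of 37 without both sample 2 arrays and also 18 of 37 without probiotic sample 1. At an unadjusted p under 0.05 there were 2 members, where 5.81% of all genes tested had such a p. They were Lox, which was higher (2.75% of all genes), and Fn1, which was lower (3.05% of all genes). The samples of the groups did not overlap for 3 members, where 12.4% of all genes did not overlap. All probiotic samples lay above the high-fat samples for 1 member, Lox (5.93% of all genes), and below them for 2, Fn1 and Mmp2 (6.42% of all genes). The share of members at an unadjusted p under 0.05 was near the background and that without overlap below it, while the share lower was above it. Of the 37 intervals at 95% confidence, 35 included no difference, and 27 lay wholly within a 2-fold change either way. The differences of 28 members were under 0.3 in size.

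**Figure D1:**
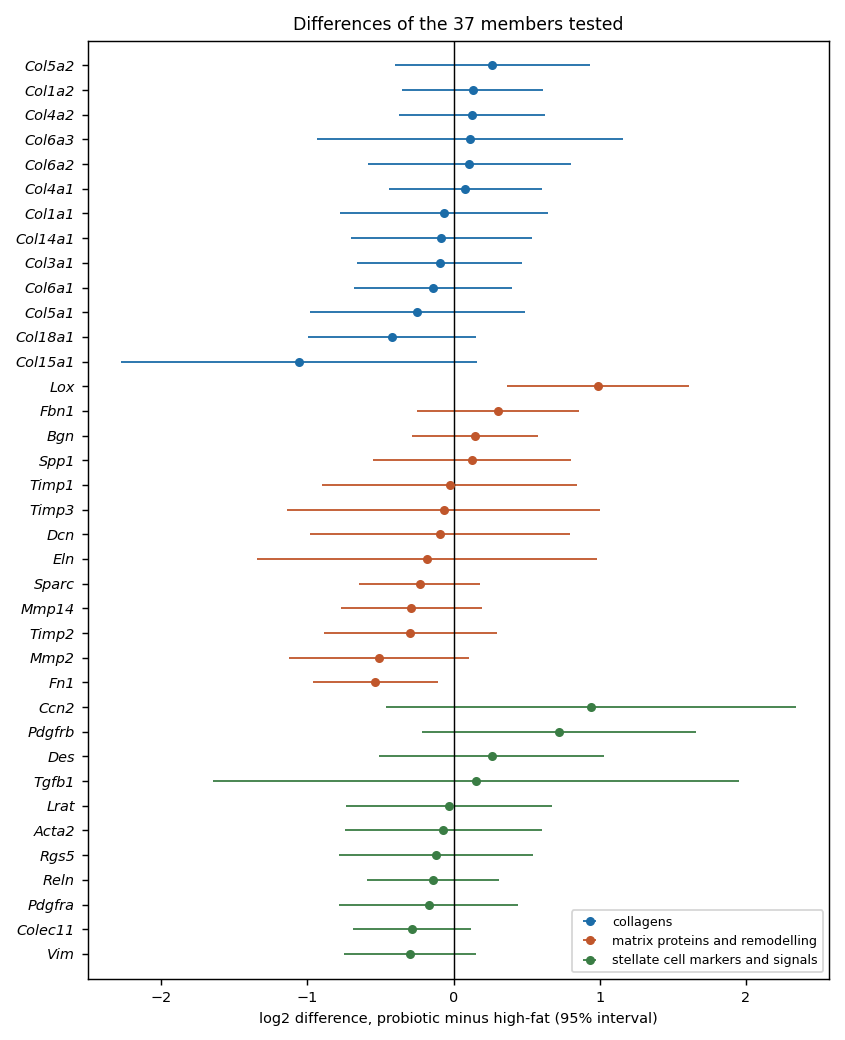
Log2 difference (probiotic minus high-fat, horizontal axis) of the 37 tested members, one row per gene, ordered by difference within collagens, matrix and stellate genes; points are limma estimates and lines 95% intervals. Only the lines of Lox and Fn1 do not cross 0, and the longest lines belong to Tgfb1 and Ccn2.

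Collagens make up the fibrils, basement membranes and microfibrils of the matrix. All 13 passed the signal limit, 6 were higher and 7 lower, and their median difference was -0.07. Col1a1, the alpha-1 chain of type I collagen and the usual readout of liver fibrosis, had log2 signals of 8.89, 7.93 and 7.85 in probiotic samples 1 to 3 and 8.33, 8.38 and 8.16 in high-fat samples 1 to 3. Probiotic sample 1 was the highest of the 6 and the other probiotic samples the lowest, and the difference was -0.07 (SE 0.32, adjusted p = 0.972). It was 0.45 when the Actb gap was in the fit, and another Col1a1 probe set gave 0.15. Col1a2, the partner chain of type I collagen, had 9.19, 9.04 and 8.97 in the probiotic samples and 8.78, 8.91 and 9.12 in the high-fat samples. The samples overlapped, with a difference of 0.13 (SE 0.21, adjusted p = 0.902), but -0.32 on another Col1a2 probe set. Col3a1, the chain of type III collagen, had 11.04, 11.36 and 11.55 in the probiotic samples and 11.41, 11.87 and 10.95 in the high-fat samples. Both the highest and the lowest value lay in the high-fat group, and the difference was -0.09, with an interval from -0.66 to 0.47.

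Type V collagen, which sets the width of type I fibrils, had differences of -0.25 for Col5a1 and 0.26 for Col5a2. The dimmer probe sets gave 0.60 for Col5a1, of opposite sign, and 0.22 for Col5a2. The microfibrillar type VI chains Col6a1, Col6a2 and Col6a3 had differences of -0.14, 0.11 and 0.11, and a dimmer Col6a3 probe set gave -0.65. Col6a3 varied most, since high-fat sample 1 had 10.00 and high-fat sample 2 had 7.80, while the probiotic samples lay between 8.86 and 9.18. Col14a1, a collagen that sits on fibril surfaces, had a difference of -0.08. The members of multiplexin type, which carry antiangiogenic fragments and lie beside basement membranes, were the lowest of the collagens. Col18a1, the source of endostatin, had 12.31, 11.39 and 12.21 in the probiotic samples and 12.11, 12.49 and 12.57 in the high-fat samples. Its groups overlapped through high-fat sample 1, and the difference was -0.42 (SE 0.25, adjusted p = 0.740), with -0.45 on its other probe set. Probiotic sample 2 was well below the rest, and the difference without it was not computed. Col15a1 had 6.55, 5.25 and 5.59 in the probiotic samples and 6.30, 7.39 and 6.87 in the high-fat samples. The groups overlapped through probiotic sample 1. Probiotic sample 2 was the lowest and high-fat sample 2 the highest, and the difference without these arrays was not computed. The Col15a1 difference of -1.06 (SE 0.54, adjusted p = 0.735) was the only one of the 37 past 1 in size, where 3.23% of all genes tested were. Its mean log2 signal of 6.32 was the closest to the limit of all members tested, and a second, dimmer probe set below the limit had the opposite sign, 0.68.

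Col4a1 and Col4a2 encode the type IV collagen chains of basement membranes and are a classic pair of genes that start head to head and share the stretch between them. In RefSeq (GRCr8) Col4a2 starts on the minus strand and Col4a1 on the plus strand of chromosome 16, and 76 bases part the starts at chr16:84885521-84885596. That stretch is shown because one sequence faces both genes, in the direction of Col4a1, with a GC box (GGGCGG, here on the other strand) in capitals.
Between Col4a2 and Col4a1: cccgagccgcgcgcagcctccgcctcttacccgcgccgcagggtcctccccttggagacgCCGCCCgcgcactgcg
A GC box on either strand is found in 18.1% of 33469 upstream windows of 76 bases. Col4a1 had 8.79, 9.14 and 9.12 in the probiotic samples and 9.20, 8.86 and 8.75 in the high-fat samples. Col4a2 had 8.90, 8.60 and 8.78 in the probiotic samples and 8.53, 8.79 and 8.59 in the high-fat samples. Both genes overlapped between groups, with differences of 0.08 and 0.13, and the samples did not rank alike, since probiotic sample 2 was near the top for Col4a1 and in the lower part of the range for Col4a2. A second Col4a1 probe set had 8.54, 8.76 and 8.53 in the probiotic samples and 9.10, 9.22 and 9.05 in the high-fat samples, without overlap. It gave -0.51 (SE 0.21, adjusted p = 0.726), so the direction for Col4a1 depended on the probe set.

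Of the 16 other matrix and remodelling genes, 13 passed the signal limit, 4 were higher and 9 lower, and their median difference was -0.09. Lox had 12.90, 12.65 and 13.47 in the probiotic samples and 11.57, 11.96 and 12.53 in the high-fat samples. Every probiotic sample lay above every high-fat sample, by a margin of less than the spread within either group, with means of 13.01 ± 0.42 with the probiotic and 12.02 ± 0.48 on the high-fat diet alone (SD, n = 3 each). The difference was 0.99 (SE 0.28, interval 0.36 to 1.61, adjusted p = 0.726). A second Lox probe set had 11.11, 11.28 and 11.84 in the probiotic samples and 9.78, 10.28 and 10.96 in the high-fat samples. It too did not overlap and gave 1.07 (SE 0.31, adjusted p = 0.726). The difference of the brighter probe set was 0.76 to 1.25 with any 1 sample left out and 1.21 when the Actb gap was in the fit, and its adjusted p was 0.326 to 1.00 over all settings tried. Loxl1, a relative of Lox that acts on elastin, lay below the signal limit and was not tested.

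Fn1, expressed by hepatocytes as a plasma protein and by stellate cells as a matrix protein, had 14.76, 14.02 and 14.67 in the probiotic samples and 14.98, 15.11 and 14.97 in the high-fat samples. The high-fat samples lay close together, and probiotic sample 2 stood well below the rest. The groups did not overlap on this normalized signal. In the deposited intensities they did, with 29282.9 in probiotic sample 1 and 28814.3 in high-fat sample 1. The difference was -0.54 (SE 0.19, adjusted p = 0.726). It was -0.58 with no normalization between arrays, -0.31 without probiotic sample 2 and -0.02 when the Actb gap was in the fit.

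Mmp2, the gelatinase made by stellate cells, had 7.56, 7.56 and 7.40 in the probiotic samples and 7.89, 8.34 and 7.83 in the high-fat samples. The groups did not overlap, and the difference was -0.51 (SE 0.28, adjusted p = 0.735). Another Mmp2 probe set gave 0.27, and the mean of both was -0.12. Mmp14, the membrane protease that activates Mmp2, had differences of -0.29 and -0.01 on its probe sets. Timp1, the inhibitor most often raised in liver fibrosis, had 7.59, 8.13 and 7.4999 in the probiotic samples and 6.97, 8.31 and 8.03 in the high-fat samples. High-fat sample 1 was the lowest and high-fat sample 2 the highest, and the difference was -0.03 (SE 0.39, adjusted p = 0.991). Timp2 had -0.30 on its brightest probe set and -1.27 (SE 0.51, adjusted p = 0.726) on a dimmer one, where the groups overlapped. On the dimmer probe set high-fat sample 2 was the highest, at 8.72, and the difference without it was not computed. Timp3, which is bound to the matrix, had -0.07, 0.03 and -0.19 on its 3 tested probe sets.

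**Figure D2:**
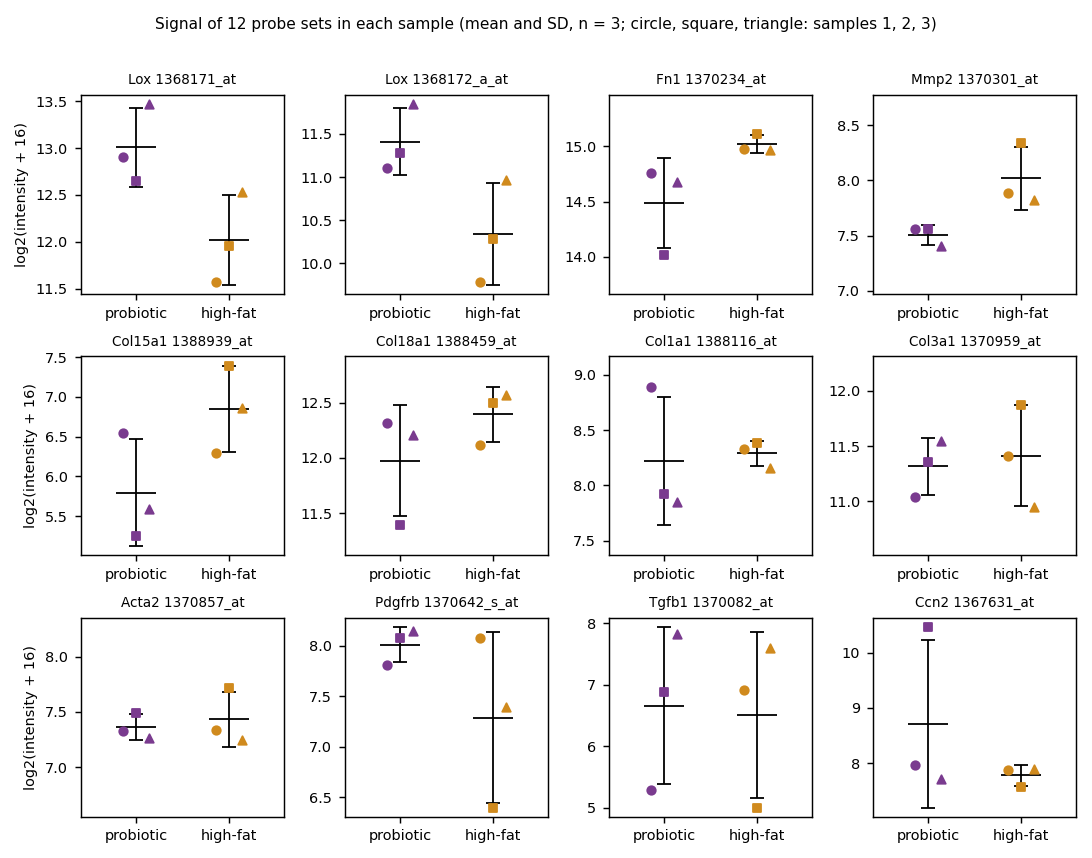
Log2 signal of 12 probe sets in the 3 probiotic and 3 high-fat samples (vertical axis, log2(intensity + 16)); each marker is a sample, the bar its group mean and the whisker the SD. On this quantile normalized signal the groups separate for both Lox probe sets, Fn1 and Mmp2, and Ccn2 is high in probiotic sample 2 alone. The deposited Fn1 intensities overlap.

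Small proteoglycans and glycoproteins organise the fibrils. Dcn, which encodes decorin, had 8.34, 8.03 and 7.40 in the probiotic samples and 7.25, 8.25 and 8.55 in the high-fat samples. These values overlapped fully, with a difference of -0.09 (SE 0.39, adjusted p = 0.970). Bgn, for biglycan, and Fbn1, for fibrillin-1, had 0.15 and 0.30, while a dimmer Fbn1 probe set gave -0.66 without overlap between groups. Sparc, a matricellular protein of stellate and endothelial cells, had 10.43, 10.62 and 10.62 in the probiotic samples and 10.62, 10.98 and 10.77 in the high-fat samples. The difference was -0.23 (SE 0.18, adjusted p = 0.784), and another Sparc probe set gave 0.30. Eln, for elastin, had -0.18 with samples spread over more than 1 log2 unit in each group. Spp1, for osteopontin, a product of bile duct cells and of activated macrophages and stellate cells, had 8.05, 7.84 and 7.36 in the probiotic samples and 7.58, 7.86 and 7.44 in the high-fat samples. Its difference was 0.12 (SE 0.30, adjusted p = 0.944).

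Markers of stellate cells tell quiescent from activated cells, and no member of either kind passed the test. Of the 14 markers and signals, 11 passed the signal limit, 4 were higher and 7 lower, with a median difference of -0.07. Acta2, the smooth muscle actin that marks activated stellate cells, had 7.33, 7.49 and 7.27 in the probiotic samples and 7.33, 7.72 and 7.25 in the high-fat samples. All 6 values fell between 7.25 and 7.72, and the difference was -0.07 (SE 0.30, interval -0.74 to 0.60, adjusted p = 0.970). Vim, for the mesenchymal filament vimentin, had 10.08, 10.29 and 9.91 in the probiotic samples and 10.20, 10.56 and 10.43 in the high-fat samples. The difference was -0.30 (SE 0.20, adjusted p = 0.755), and only probiotic sample 2 lay among the high-fat values. Des, for desmin, the filament that marks rat stellate cells, had 7.63, 7.91 and 7.45 in the probiotic samples and 7.23, 7.98 and 6.998 in the high-fat samples. High-fat samples held its highest and lowest values, and the difference was 0.26 (SE 0.34, adjusted p = 0.872).

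Lrat, the enzyme that esterifies vitamin A for storage and marks quiescent stellate cells, had 8.79, 8.48 and 8.78 in the probiotic samples and 9.06, 8.03 and 9.05 in the high-fat samples. High-fat sample 2 was the lowest and the other high-fat samples the highest, and the difference was -0.03 (SE 0.31, adjusted p = 0.986). Reln, for reelin, and Colec11, for a collectin, which also mark stellate cells, had -0.14 and -0.28, and Rgs5, a pericyte gene, had -0.12. Of the PDGF receptors, Pdgfra had -0.17. Pdgfrb, the receptor through which PDGF drives stellate cell growth, had 7.81, 8.07 and 8.15 in the probiotic samples and 8.07, 6.40 and 7.40 in the high-fat samples. Its difference of 0.72 (SE 0.42, adjusted p = 0.740) rested mostly on high-fat sample 2, and was 0.29 without that sample. It was 0.18 when the Actb gap was in the fit. The suffix of this probe set marks probes shared by several transcripts, and both other Pdgfrb probe sets lay below the signal limit with lower values in the probiotic group.

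The fibrogenic signals included the most variable members. Tgfb1, the main fibrogenic cytokine, had 5.29, 6.88 and 7.81 in the probiotic samples and 6.92, 5.002 and 7.60 in the high-fat samples. The spread within each group exceeded 1 log2 unit, and the difference was 0.15 (SE 0.80, interval -1.65 to 1.95, adjusted p = 0.975), so a 3-fold change either way lay within the interval. It was -1.23 when the Actb gap was in the fit. Ccn2, connective tissue growth factor, is a target of TGF-beta and of the YAP and TEAD factors and responds within an hour to serum and to cell stress. It had 7.96, 10.47 and 7.71 in the probiotic samples and 7.87, 7.56 and 7.90 in the high-fat samples. Probiotic sample 2 stood more than 2 log2 units above the other 5, which lay close together. The difference was 0.94 (SE 0.62, adjusted p = 0.755), and it was 0.06 without probiotic sample 2 and -0.85 when the Actb gap was in the fit. In the same sample, 13 of 13 tested immediate early genes, the first to be transcribed when a cell is stimulated, had their highest value, against 20.8% of all genes tested. Egr1, one of them, had 9.95, 14.40 and 9.99 in the probiotic samples and 8.76, 9.47 and 9.19 in the high-fat samples. The part of this in the Ccn2 value was not tested.

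The 250 bases before the RefSeq start of Ccn2 (GRCr8, minus strand, chr1:22624615-22624864) are shown because Ccn2 was the member that stood highest above the rest in a single sample. Capitals mark GGAATG, the core that TEAD factors bind, and TATAAA.
Ccn2 upstream: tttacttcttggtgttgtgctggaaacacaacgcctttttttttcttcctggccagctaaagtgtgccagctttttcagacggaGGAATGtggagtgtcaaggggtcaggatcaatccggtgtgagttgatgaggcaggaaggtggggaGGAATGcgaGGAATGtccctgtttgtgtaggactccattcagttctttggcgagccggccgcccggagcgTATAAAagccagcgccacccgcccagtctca
GGAATG occurred 3 times, starting 166, 101 and 92 bases before the start, and TATAAA began 31 bases before it. Both strands were searched, and the marked motifs did not overlap. At least 1 GGAATG was found in 12.1% of 33469 windows of this length and at least 3 in 0.0807%. RefSeq windows were at hand for 29 of the 43 members, of which 5 held GGAATG and 1, Ccn2, held it 3 times. A match describes these letters and is no evidence of binding in these samples.

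The members that did not reach the signal limit were Thy1, Lum, Postn, Loxl1, Tagln and Hgf, 6 of 43. Thy1 marks portal fibroblasts, Postn and Tagln activated myofibroblasts, Lum encodes the proteoglycan lumican, and Hgf the hepatocyte growth factor that stellate cells release. Their brightest probe sets had mean log2 signals from 4.96 (Hgf) to 6.03 (Thy1, the one closest to the limit), while Col15a1 at 6.32 and Tgfb1 at 6.58 lay just inside. Of these 6, 5 had lower means in the probiotic group and Lum a higher one, none tested. Tagln was dim in both groups, at 5.01 ± 0.04 with the probiotic and 5.15 ± 0.71 on the high-fat diet alone (SD, n = 3 each).

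High-fat sample 2 held the highest value of 16 of the 37 members, against 23.1% of all genes tested, and these included Vim, Sparc, Fn1, Mmp2, Acta2 and Des. Relative to each gene's own mean, the median over the members was -0.14, 0.04 and 0.03 in probiotic samples 1, 2 and 3 and -0.05, 0.28 and 0.01 in high-fat samples 1, 2 and 3. High-fat sample 2 thus lay above the other 5 samples, and the groups overlapped without it. The matrix proteins and remodelling enzymes had medians of -0.17, 0.15 and -0.08 in the probiotic samples and -0.13, 0.30 and 0.06 in the high-fat samples. For the collagens alone the medians were -0.01, -0.10 and 0.08 in the probiotic samples and -0.03, 0.12 and -0.05 in the high-fat samples. The stellate markers and signals gave -0.16, 0.09 and 0.06 in the probiotic samples and 0.13, 0.21 and -0.03 in the high-fat samples. Markers of resident macrophages had medians of -0.18, -0.42 and -0.04 in the probiotic samples and 0.07, 0.56 and 0.08 in the high-fat samples. In high-fat sample 2 they held their highest value for 6 of 8 tested genes, and their part in the member values was not tested.

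**Figure D3:**
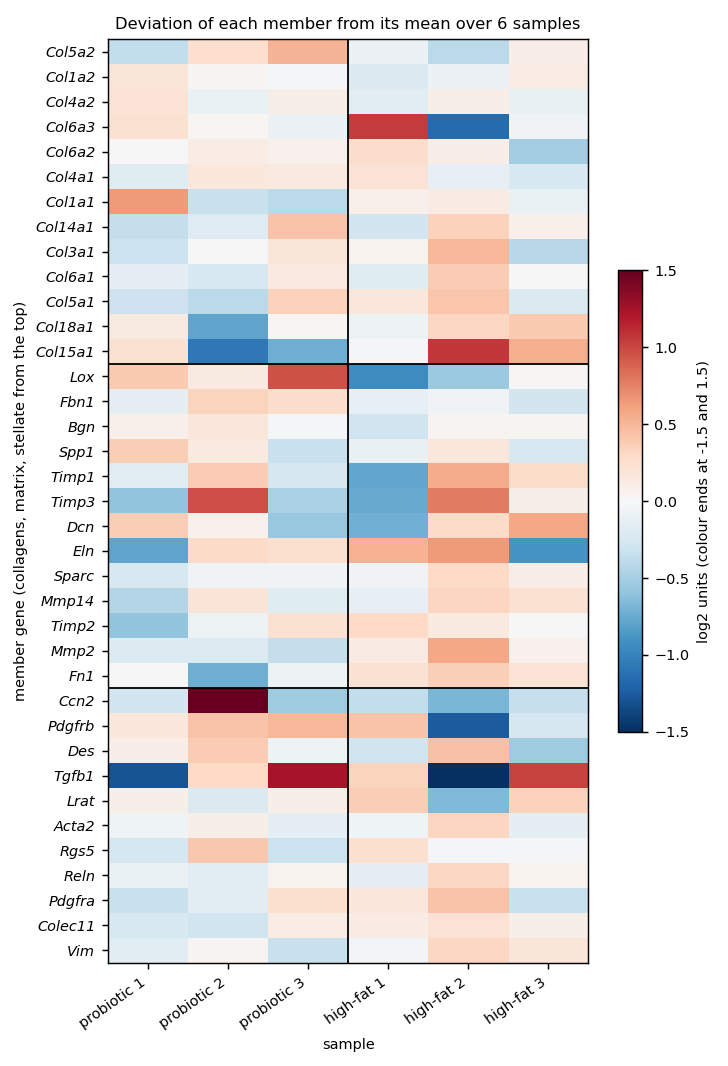
Deviation of each tested member (rows) from its own mean over 6 samples (columns; probiotic samples left of the line, high-fat samples right), in log2 units by colour. Red cells gather in the high-fat 2 column, which holds the highest value of 16 of 37 members, and the darkest single cell among the higher values is Ccn2 in probiotic sample 2.

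Probe sets of the same gene often disagreed. Among the 16 members with more than 1 tested probe set, 10 of 17 further probe sets had the sign opposite to the brightest one, and 8 of 17 differed from it by over 0.5. Counted by probe set, 7 of 54 had an unadjusted p under 0.05 (3 higher, 4 lower, in 6 genes), where 6.85% of all probe sets did. Likewise, 7 of 54 did not overlap between groups, where 12.7% of all probe sets did not. Lox was the one member with more than 1 tested probe set whose probe sets all passed both marks. Col14a1 showed the opposite case, since its dimmer probe set had 8.07, 7.94 and 8.12 in the probiotic samples and 7.46, 7.06 and 7.52 in the high-fat samples. That probe set did not overlap and gave 0.70 (SE 0.27, adjusted p = 0.726), against -0.08 on the brighter one. Only Lox, Col18a1 and Col5a2 had probe sets within 0.1 of each other on the same side of 0.

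**Figure D4:**
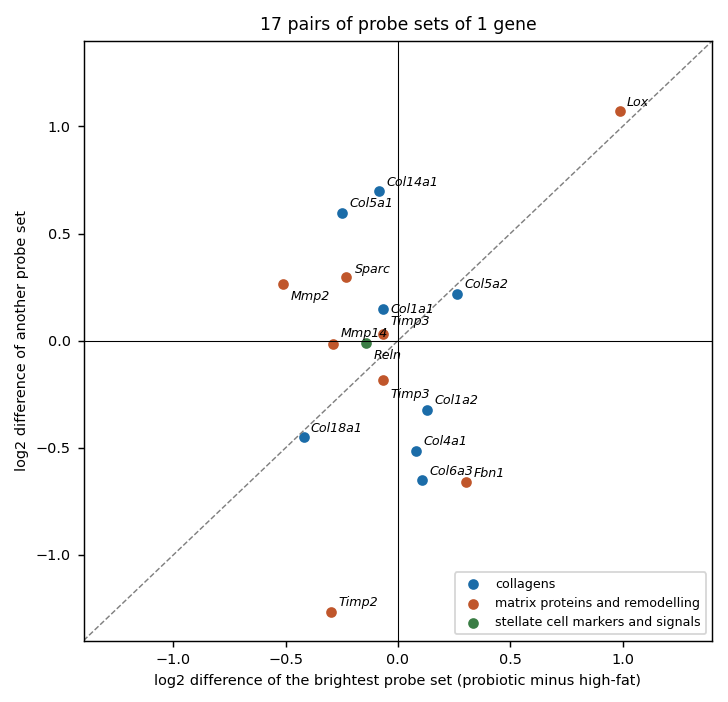
Log2 difference (probiotic minus high-fat) of each further tested probe set (vertical axis) against that of the brightest probe set of the same gene (horizontal axis), 17 pairs from 16 members; the dashed line marks equal values. Lox lies near the line at the upper right, at 0.99 and 1.07, while 10 pairs fall in the quadrants of opposite sign.

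Other genes of the same pathways were read from 5 further lists. No tested gene of these lists passed the adjusted test, and the lists had medians from -0.27 to 0.08. The background for their counts at an unadjusted p under 0.05 is 5.81% of all genes tested. Of 15 tested genes of other collagens and collagen processing, 8 were higher and 7 lower, with 0 at an unadjusted p under 0.05. The basement membrane chain Col4a5 had 0.38, the prolyl hydroxylase P4ha2 -0.36 (0.36 on another probe set) and Pcolce, an enhancer of procollagen cleavage, -0.31. Of 21 other matrix proteins, 11 were higher and 10 lower, and 2 had an unadjusted p under 0.05. These were Tgfbi, an adhesion protein induced by TGF-beta (12.94 ± 0.18 with the probiotic and 12.56 ± 0.11 on the high-fat diet alone, SD, n = 3 each), and the proteoglycan Prelp, with differences of 0.38 and -0.57. Thbs2 had 0.69.

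Proteases and inhibitors outside the set counted 8 higher and 6 lower of 14. At an unadjusted p under 0.05 there were 0, where 5.81% of all genes tested had such a p, the background for the next lists too. Among them Adamts4 had 0.66, Adamts1 0.60 and Mmp23 -0.66, with -0.05 and -0.61 on further Mmp23 probe sets. TGF-beta and PDGF signalling had 13 of 22 genes higher and 9 lower, with 1 at an unadjusted p under 0.05. That gene, Itgb1, the beta-1 integrin that binds collagen and fibronectin, had 11.53 ± 0.20 with the probiotic and 11.98 ± 0.13 on the high-fat diet alone (SD, n = 3 each), with differences of -0.45 and -0.64 on its probe sets. The receptor Tgfbr1 had 0.40, but -0.98 on another probe set, and the repressor Tgif1 0.73. Further stellate cell genes had 6 of 16 higher and 10 lower, the list with the lowest median. Relative to each gene's own mean, their per-sample medians were -0.08, -0.13 and -0.03 in the probiotic samples and 0.13, 0.12 and 0.16 in the high-fat samples. These medians did not overlap between groups, and the difference of the list was not tested. At an unadjusted p under 0.05 there were 2 genes of the 16. These 2 were Nt5e, an ectonucleotidase, at 0.42 and the metalloreductase Steap4 at -0.50, and the growth factor Gas6 had -0.51 (-0.08 and -0.67 on further probe sets).

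Marker lists of the other liver cells were read beside these values. Hepatocyte markers had a median difference of -0.01 over 7 tested genes. Most of them, such as Alb at a mean log2 signal of 16.14, lie at the top of the range. There quantile normalization leaves little room for a difference between arrays. Lower in the range, Asgr1 had -0.09 and Hnf4a 0.28, with all probiotic samples above the high-fat samples for Hnf4a. The deposited Hnf4a intensities overlapped, with 13896.3 in probiotic sample 2 and 15128.1 in high-fat sample 3. Further Hnf4a probe sets gave -0.61 and -0.39. Cps1 had 0.07, and -0.48 on another probe set, where probiotic sample 2 was the lowest. Markers of liver endothelial cells, which also express Col4a1, Col4a2, Sparc and Vim, had 5 of 8 higher and a median of 0.04, against 3 of 8 and -0.25 without probiotic sample 2. Markers of Kupffer cells and macrophages, in which Vim and Spp1 are also expressed, were lower in 8 of 8, with a median of -0.37, against 7 of 8 and -0.10 without both sample 2 arrays. Smooth muscle markers, which overlap with Acta2, Tagln and Des, had 4 of 5 higher and a median of 0.14. Differences ran from -0.44 for Smtn (0.11 on another tested probe set) to 0.58 for Cnn1. All probiotic samples lay below the high-fat samples for the brightest Smtn probe set and above them for Myh11, at 0.35. Without high-fat sample 2 the median of the smooth muscle markers was -0.05, with 2 of 5 higher. Bile duct markers had 3 of 4 higher and a median of 0.16, against 2 of 4 and 0.0058 without probiotic sample 2. All probiotic samples lay above the high-fat samples for Epcam (0.28) and Slc4a2 (0.42), as for 5.93% of all genes tested. Krt19 (0.05) and Cftr (-0.08) overlapped. Of the mesothelial and portal fibroblast markers only Msln and Entpd2 passed the signal limit. Entpd2 had a difference of -0.12, and mesothelin, Msln, had 6.66, 5.18 and 5.76 in the probiotic samples and 7.08, 7.75 and 7.25 in the high-fat samples. Those groups did not overlap, with a difference of -1.49 (adjusted p = 0.726). Of the mesothelial markers below the limit, Upk1b had 1.00, with all probiotic samples above the high-fat samples, and Gpm6a 0.55, neither tested. Blood cell markers had 5 of 6 higher and a median of 0.56, with per-sample medians of 0.13, 0.99 and 0.06 in the probiotic samples and -0.23, -0.59 and -0.07 in the high-fat samples. Their median was 0.44 without probiotic sample 2 and 0.32 without both sample 2 arrays. Hbb, Alas2 and Pf4, 3 of the 6, were higher at an unadjusted p under 0.05, where 2.75% of all genes tested were. Immediate early genes had 12 of 13 higher and a median of 1.24, against 8 of 13 and 0.19 without probiotic sample 2. No gene of these lists passed the adjusted test, and their part in the member values was not tested.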

How the data were processed

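Total RNA from liver (8 ug, Trizol) was made into biotinylated cRNA by the standard Affymetrix protocol, per the labels. The authors deposited 1 linear intensity per probe set and array, and the software behind it is not given in the sources used here. Here, log2(intensity + 16) was quantile normalized, 57 control probe sets were left out, and 18625 of 31099 probe sets at or above the 40th percentile of the mean were tested. Groups came from the sample titles. They were compared with limma 3.58.1 (R 4.3.3; lmFit, eBayes with trend). Its two-sided p-values were adjusted by Benjamini and Hochberg's method over all tested probe sets. The scripts were tested on simulated data, and figures were drawn with matplotlib 3.10.9.

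Symbols came from the platform annotation, checked by gene identifier against RefSeq (GRCr8). Of 20826 probe sets with 1 symbol, 20758 matched and 0 changed, while 436 had several symbols and 9780 are unnamed here. Log2 folds understate changes of dim probe sets. Members and lists were chosen with earlier results of these data known. Named were 18 fixed members, those without overlap or with an unadjusted p under 0.05, and up to 3 genes of smallest p from each further list. Alternatives covered normalization, filter, pseudocount, variance model, array weights, replicate block, Actb gap, probe set choice and samples left out.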

Additional observations from a re-analysis of the deposited data

How the results depend on the processing

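At all 17 other settings of the fit, 0 member probe sets passed the adjusted threshold. The count of tested members lower in the probiotic group, 23 of 37, was followed through settings added after seeing the data. It ranged from 16 of 36 without high-fat sample 2 to 28 of 43 with no filter. Without probiotic sample 1 it was 18 of 37, and with array weights 19 of 37, where 48.6% of all genes were lower at the main setting. Of 18 members followed by name, Des, Fn1, Lox, Mmp2, Pdgfrb and Vim, 6 in all, kept their sign at every setting that gave a value. The count of all probe sets past the threshold was 4, and 3 to 12 with any 1 sample left out (12 without probiotic sample 1, 9 without high-fat sample 1). The median difference of the collagens, -0.07, was 0.0557 with array weights, 0.0718 when the Actb gap was in the fit, 0.0955 without both sample 2 arrays and -0.0950 to 0.0552 with 1 sample left out. That of matrix proteins and remodelling, -0.09, was -0.315 to 0.0935 with 1 sample left out, the lowest when high-fat sample 1 and the highest when probiotic sample 3 was dropped.

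The following signs turned, and the cause was not tested. When the Actb gap was in the fit, the values were -0.85 for Ccn2, 0.45 for Col1a1, -0.135 for Col4a1, 0.0814 for Dcn and -1.23 for Tgfb1. Without both sample 2 arrays they were 0.0075 for Acta2, -0.0548 for Ccn2, 0.125 for Col1a1, 0.11 for Col3a1, -0.0202 for Col4a1, -0.69 for Tgfb1 and 0.0508 for Timp1. As the mean of all probe sets, Col1a1 had 0.0404, Col1a2 -0.0957, Col4a1 -0.217 and Sparc 0.0327, and with array weights Col3a1 had 0.17 and Tgfb1 -0.0014. With 1 sample left out the range was -0.155 to 0.0736 for Acta2, -0.40 to 0.12 for Col1a1, -0.33 to 0.14 for Col3a1, -0.0132 to 0.214 for Col4a1, -0.48 to 0.17 for Dcn, -0.38 to 0.14 for Lrat, -0.0292 to 0.319 for Spp1, -0.59 to 0.84 for Tgfb1 and -0.43 to 0.25 for Timp1. Ccn2 kept its sign with 1 sample left out, at 0.0584 (without probiotic sample 2) to 1.43.

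The marker lists without either or both sample 2 arrays were added after seeing the data. Deviations from the group means had correlations of 0.14, 0.03 and 0.08 between samples that share replicate number 1, 2 and 3. The titles give only the number, and these values cannot settle whether such samples were paired. With the replicate number as a block, 0 member probe sets passed, the lowest adjusted p among the named members was that of Lox at 0.326, and it changed no call. With 3 arrays a group, the interval half-width of a member was 0.62 at the median.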
